A study of Mus musculus with 7 samples.

Results

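The 9 genes described here serve antigen presentation by MHC class II, the surface molecules that show peptides to CD4 T cells. They are *H2-Aa*, *H2-Ab1*, *H2-Eb1*, *H2-DMa*, *H2-DMb1*, *H2-DMb2*, *H2-Oa*, *Cd74* and *Ciita*. They were chosen by name, with earlier results of these data known, from the 38026 genes of the expression table, and each name matched 1 gene. RNA had been sequenced from 7 subcutaneous tumors of C57BL/6 mice, taken 2 weeks after inoculation with pancreatic ductal adenocarcinoma (PDA) cells and given no treatment. The cells were of line 1242, which comes from a KPC mouse tumor, a genetic model of pancreatic cancer in which the *Pdx1* promoter drives Cre in the pancreas. The inoculated cells expressed a guide RNA of scrambled sequence in 4 tumors, named sgScramble with replicates 1 to 4, and one targeting *Krt19* in 3 tumors, named sgKrt19 with replicates 5, 6 and 8. Both groups therefore carried the lentiviral Cas9 vector and had been through selection, and the labels do not say which *Krt19* guide was used or whether the edited cells were a clone. The mice were purchased at 6 weeks of age and housed for 2 weeks before use. The study asked how loss of *Krt19*, a keratin of epithelial cells, from the cancer cells alters the immune state of the tumor.

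MHC class II molecules are pairs of an α and a β chain that are assembled in the endoplasmic reticulum around the invariant chain, the product of *Cd74*, which blocks the peptide groove and guides the complex to endosomes. There proteases degrade the invariant chain, and the chaperone H2-DM exchanges its last fragment for peptides, while H2-DO restrains H2-DM. Dendritic cells, B cells and macrophages make class II constitutively, and interferon gamma, acting through the transactivator CIITA, can induce it in many other cells, epithelial cancer cells among them.

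Of the 9 genes, 8 were higher in the sgKrt19 tumors, and *Ciita* did not pass the test. Values are normalized read counts, which are the reads of a gene divided by a size factor of the library. Errors after ± are SDs over 4 sgScramble or 3 sgKrt19 libraries, and fold changes are differences of mean log2(value + 1), sgKrt19 minus sgScramble, with their SE. Adjusted p-values are those of limma over 21322 genes with the Benjamini-Hochberg method, and a gene is called at an adjusted p under 0.05. The median fold change of the 9 genes was 0.99 on the log2 scale, against a median of 0.0072 over all genes tested. In the same comparison 17.9% of all genes tested were called higher and 16% were called lower. For 8 of the 9 genes every sgKrt19 library lay above every sgScramble library, which held for 21.7% of all genes tested. All 9 genes had values above 10 in all 7 libraries, so none entered the test through a single group. The study describes inoculation in the right flank, and the labels tie no tumor to an animal. The p-values measure the spread between these tumor libraries.

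**Figure D1:**
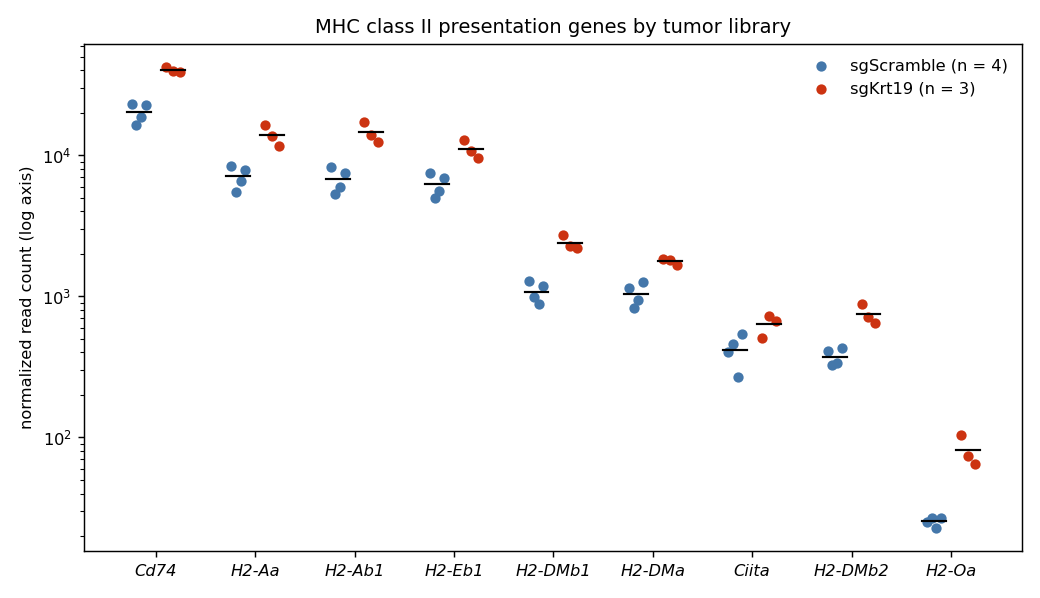
Normalized read counts (log axis) of the 9 class II genes, each point 1 tumor library and each bar a group mean (sgScramble n = 4, sgKrt19 n = 3). The sgKrt19 points lie above all sgScramble points for 8 genes, and the groups overlap for *Ciita*.

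The libraries held 40781199 to 44972100 reads. *Krt19* itself fell from 23053 ± 4392 to 2012 ± 434 (log2 fold change −3.52, SE 0.18), and it was lower in each of the 3 sgKrt19 libraries than in any sgScramble library. The sgScramble library of replicate 3 stood apart from its group in 5 skeletal muscle genes, whose summed count was 1554 there and 22.7 to 33.4 in the other 3 libraries, while the sgKrt19 libraries held 14045 to 20262. The part of admixed muscle in the class II values was not tested. With that library left out, 8 of the 9 genes were again called. That does not bear on muscle, since the sgKrt19 libraries kept high muscle counts and the remaining sgScramble libraries low ones. The tumors were sequenced whole, so a change in the number of class II expressing cells and a change in RNA per cell cannot be told apart.

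The class II promoters are known for a shared arrangement, an X box bound by the RFX complex followed by a Y box bound by NF-Y, on which CIITA assembles. Start-site windows of 300 bases (250 before and 50 after the start) from RefSeq on GRCm38.p6 matched 6 of the 9 genes, and *H2-Ab1*, *Cd74* and *Ciita* were not matched. They were searched for the Y box core ATTGG preceded on the strand of the gene by an X box part, GCAAC or ACNGATG, with 10 to 50 bases between. This arrangement was settled after the sequences had been seen. It was present before the RefSeq start of 5 of the 6 genes. Over all genes it was in 300 of 32851 windows (0.913%), which counts windows and not genes. Since the arrangement was settled on sequences already seen, these figures do not test it. Counted on both strands, ATTGG alone was in 37.4% of all windows, GCAAC in 35.2% and ACNGATG in 9.85%. The stretches below show the arrangement in 4 of the 9 genes and in the related genes *H2-Ob* and *H2-Eb2*, with the X box part and the Y box core in capitals.
*H2-Aa* (chr17:34287852-34287919, minus strand): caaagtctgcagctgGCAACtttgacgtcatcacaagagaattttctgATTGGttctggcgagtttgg
*H2-Eb1* (chr17:34305764-34305827, plus strand): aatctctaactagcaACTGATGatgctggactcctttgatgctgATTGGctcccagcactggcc
*H2-DMb2* (chr17:34145114-34145178, plus strand): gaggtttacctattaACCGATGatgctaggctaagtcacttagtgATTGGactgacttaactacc
*H2-Oa* (chr17:34092288-34092340, plus strand): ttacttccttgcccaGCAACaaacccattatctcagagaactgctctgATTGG
*H2-Ob* (chr17:34238803-34238867, plus strand): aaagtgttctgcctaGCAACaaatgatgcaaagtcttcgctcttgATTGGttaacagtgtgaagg
*H2-Eb2* (chr17:34325531-34325594, plus strand): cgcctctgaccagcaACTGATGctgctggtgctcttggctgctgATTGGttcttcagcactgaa

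Between the capitals lie 28 bases in *H2-Aa* and *H2-Oa*, 22 in *H2-Eb1* and *H2-Eb2*, 23 in *H2-DMb2* and 25 in *H2-Ob*. In *H2-Eb1* and *H2-Eb2* GCAAC also occurs and shares its last bases with ACNGATG. The Y box core began 48 bases before the RefSeq start of *H2-Aa* and 59 before that of *H2-Eb1*. For *H2-DMb2* it began 90 bases before the RefSeq start and for *H2-Oa* 43 bases before it. In *H2-DMb1* the arrangement lies 61 bases before the RefSeq start with 23 bases between its parts, as in its neighbor *H2-DMb2*. GENCODE M21 starts *H2-DMb1* earlier, at chr17:34153072. By that annotation the stretch of 50 bases that holds the arrangement lies wholly in an exon, after the start. GENCODE M21 also starts *H2-DMb2* earlier, at chr17:34143307, so the stretch printed for it lies after that start. It starts *H2-Oa* at chr17:34092340, which is the last base of the stretch printed for *H2-Oa*. Neither of 2 windows for *H2-DMa* held the arrangement. A match of letters is not a measured binding site. The arrangement occurred both in genes that were called and in *H2-Ob*, which was not (log2 fold change 0.41, SE 0.29, adjusted p = 0.287). *H2-Eb2*, with 0.913 to 7.42 normalized reads per library, was too low to be tested.

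The classical class II chains are encoded on chromosome 17 (coordinates are GENCODE M21 on GRCm38), where *H2-Aa* occupies chr17:34282744-34287823 on the minus strand, *H2-Ab1* chr17:34257689-34269419 and *H2-Eb1* chr17:34305867-34316674, both on the plus strand. None of their exons overlaps another gene, and no stretch of 76 bases, the read length, is shared with another gene.

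*H2-Aa*, the α chain of I-A, had 8343, 5535, 6554 and 7930 normalized reads in sgScramble replicates 1 to 4 and 16344, 13728 and 11704 in sgKrt19 replicates 5, 6 and 8. The lowest sgKrt19 library lay 1.40 times above the highest sgScramble library, and the mean rose from 7090 ± 1288 to 13926 ± 2326 (log2 fold change 0.98, SE 0.17, adjusted p = 0.0020). *H2-Ab1*, the β chain that pairs with it, had 8275, 5298, 5963 and 7456 in sgScramble and 17346, 14008 and 12336 in sgKrt19. Its libraries kept the order of *H2-Aa* in the sgKrt19 group, with replicate 5 highest, and the mean rose from 6748 ± 1360 to 14564 ± 2551 (log2 fold change 1.12, SE 0.18, adjusted p = 0.0013). *H2-Eb1*, the β chain of I-E, had 7459, 4954, 5569 and 6929 in sgScramble and 12848, 10727 and 9646 in sgKrt19. The groups again did not overlap, and the mean rose from 6228 ± 1164 to 11074 ± 1629 (log2 fold change 0.84, SE 0.16, adjusted p = 0.0039). In all 3 genes sgScramble replicate 2 was the lowest library.

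The ratio of the β chain genes to each other differed between the groups without overlap. For every 100 *H2-Ab1* reads there were 90.1, 93.5, 93.4 and 92.9 *H2-Eb1* reads in sgScramble and 74.1, 76.6 and 78.2 in sgKrt19, a comparison chosen after its values were seen and given without a test. C57BL/6 mice lack a functional α chain gene for I-E, so the *H2-Eb1* product has no partner at the cell surface. That α chain gene was not analysed here.

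*Cd74* (chr18:60803848-60812652, plus strand) was the most abundant of the 9 genes, with 23160, 16507, 18692 and 22833 normalized reads in sgScramble and 42246, 39631 and 38729 in sgKrt19. The sgKrt19 libraries lay close together, with a coefficient of variation of 4.54% against 15.98% in sgScramble. The mean rose from 20298 ± 3244 to 40202 ± 1827 (1.98 times, SE of the log2 fold change 0.15, adjusted p = 0.0010). *Cd74* held 44.5% to 49.9% of the reads of the 9 genes in each library. Together with the 3 classical chains it held 92.5% to 93.8%.

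H2-DM is a pair of *H2-DMa* with 1 of 2 neighboring β chain genes. *H2-DMa* (chr17:34119541-34139101) had 1137, 831, 942 and 1258 normalized reads in sgScramble and 1847, 1824 and 1658 in sgKrt19, and its mean rose from 1042 ± 192 to 1777 ± 103 (log2 fold change 0.79, SE 0.15, adjusted p = 0.0032). *H2-DMb1* (chr17:34153072-34160230) had 1278, 985, 880 and 1176 in sgScramble and 2734, 2278 and 2210 in sgKrt19. With a lowest sgKrt19 library 1.73 times above the highest sgScramble library, its groups were further apart than those of *H2-DMa*, at 1.32 times. The mean of *H2-DMb1* rose from 1080 ± 180 to 2407 ± 285 (log2 fold change 1.16, SE 0.15, adjusted p = 0.0004). *H2-DMb2* (chr17:34143307-34151555) was the lower of the β chain genes, with 407, 326, 334 and 429 in sgScramble and 879, 716 and 646 in sgKrt19. Its mean rose from 374 ± 51.7 to 747 ± 119 (log2 fold change 0.99, SE 0.16, adjusted p = 0.0012). Of the 76-base stretches of *H2-DMb1*, 15.7% also occur in *H2-DMb2*, so the counting could have moved some reads between them. Exons of *H2-DMa* overlap those of *Brd2* on the opposite strand over 10.4% of their bases, and *Brd2*, at 5974 ± 270 and 5420 ± 403, was not called (adjusted p = 0.295).

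*H2-Oa*, the α chain of H2-DO (chr17:34092340-34095234), was the least abundant of the 9 genes and had the largest fold change among them. It had 25.1, 26.7, 22.8 and 26.9 normalized reads in sgScramble and 104, 74.0 and 65.1 in sgKrt19. The sgScramble libraries were nearly level, whereas replicate 5 stood above the other sgKrt19 libraries. The mean rose from 25.4 ± 1.88 to 81.1 ± 20.4 (log2 fold change 1.61, SE 0.24, adjusted p = 0.0009). Over 22.8% of its exon bases *H2-Oa* overlaps *BC051537* on the opposite strand, which rose as well, from 9.87 ± 1.81 to 28.2 ± 10.7 (log2 fold change 1.38, SE 0.33, adjusted p = 0.011). Whether the counting used strand is not given in the sources used here, so reads from this overlap may stand in both genes. The β chain gene of H2-DO, *H2-Ob*, had 29.7, 45.5, 24.7 and 39.9 in sgScramble and 37.0, 61.0 and 42.0 in sgKrt19, and its groups overlapped.

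*Ciita* (chr16:10480059-10528418, plus strand) encodes the transactivator on which class II transcription depends. It had 402, 460, 269 and 539 normalized reads in sgScramble and 509, 720 and 672 in sgKrt19. The sgKrt19 library of replicate 5, the highest for *H2-Aa*, *H2-Ab1*, *H2-Eb1* and *Cd74*, was the lowest of its group for *Ciita* and lay below sgScramble replicate 4. The means were 417 ± 114 and 634 ± 111 (log2 fold change 0.63, SE 0.23, 95% interval 0.13 to 1.13, adjusted p = 0.0543). The call depended on the setting: *Ciita* was called by DESeq2 (adjusted p = 0.0335), without sgScramble replicate 4 (adjusted p = 0.0302) and without sgKrt19 replicate 5 (adjusted p = 0.0489), and over the other settings its adjusted p was 0.053 to 1. The table counts whole genes, so the separate *Ciita* promoters used in dendritic cells, in B cells and after interferon gamma could not be told apart.

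Levels were also compared per kilobase of annotated exons, the scale on which genes of different length can be set side by side. In sgScramble tumors the order ran from *Cd74* with 12089 ± 1932 normalized reads per kilobase through *H2-Eb1* with 3204 ± 599, *H2-Ab1* with 2628 ± 530 and *H2-Aa* with 1867 ± 339. The H2-DM genes followed, *H2-DMb1* at 642 ± 107, *H2-DMa* at 302 ± 55.6 and *H2-DMb2* at 214 ± 29.6, and *Ciita* at 43.8 ± 12.0 and *H2-Oa* at 18.0 ± 1.33 came last. In sgKrt19 tumors *H2-Eb1* and *H2-Ab1* stood at 5696 ± 838 and 5671 ± 993. These SDs are spreads between libraries, and the genes were not compared per kilobase within each library. There *H2-Oa*, at 57.6 ± 14.5, came within the spread of *Ciita*, at 66.5 ± 11.6. The order is that of the annotation, since exons that the tumor transcripts leave out lower a value per kilobase.

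Differences of log2(value + 1) between 2 genes of the same library depend little on the size factor, and scaling by library size alone moved the largest of them, *H2-DMa* minus *H2-Oa*, from a change of −0.826 to one of −0.831. They were tested for 5 pairs by an exact two-sided permutation test over the 35 ways of dividing the libraries. Its p is 2 times the smaller one-sided p, so it cannot fall under 0.0571 and no pair could pass 0.05. *H2-Aa* minus *H2-Ab1* was 0.08 ± 0.05 in sgScramble and −0.06 ± 0.03 in sgKrt19, with no overlap (exact p = 0.0571, adjusted 0.143). *H2-DMa* minus *H2-Oa*, the chaperone against the chain of its inhibitor, was 5.29 ± 0.27 and 4.46 ± 0.28, also with no overlap (exact p = 0.0571, adjusted 0.143). Its change was −0.56 with a pseudocount of 10, and −0.95 to −0.66 with 1 library left out. *Cd74* minus *H2-Ab1* was 1.60 ± 0.08 and 1.48 ± 0.18, and its groups overlapped (exact p = 0.514, adjusted 0.643). *H2-Ab1* minus *Ciita* was 4.03 ± 0.45 and 4.52 ± 0.49 (exact p = 0.343, adjusted 0.571). *H2-Ab1* minus *Ptprc*, which encodes the leukocyte antigen CD45, was 2.80 ± 0.19 and 2.73 ± 0.20 (exact p = 0.686, adjusted 0.686). *Ptprc* itself rose by 1.19 (SE 0.16, adjusted p = 0.0005) on the log2 scale.

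**Figure D2:**
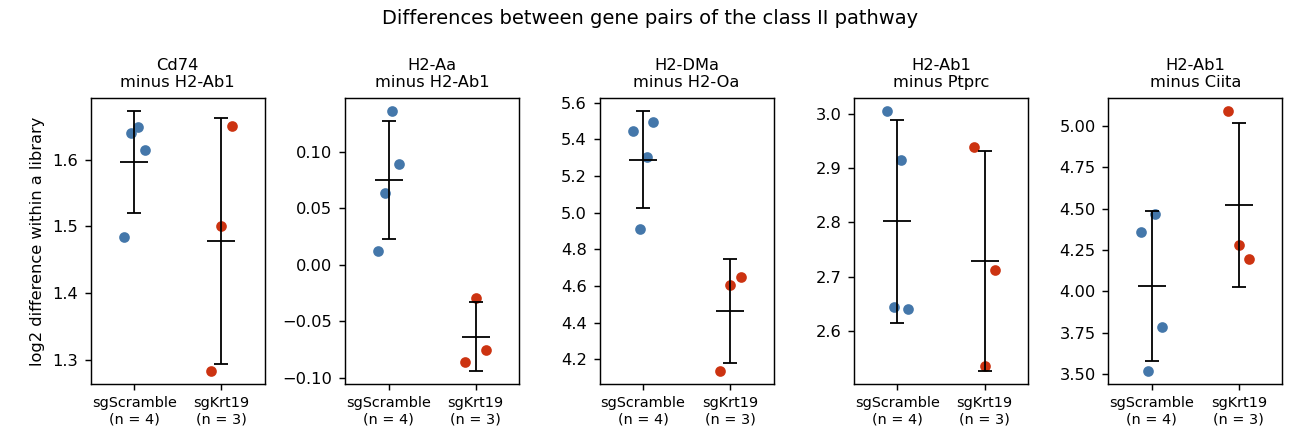
Log2 difference between 2 genes within each library for the 5 pairs tested, with points for libraries, horizontal bars for means and vertical bars for SDs (sgScramble n = 4, sgKrt19 n = 3). The groups separate for *H2-Aa* minus *H2-Ab1* and for *H2-DMa* minus *H2-Oa*, and overlap for the other 3 pairs.

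Around these 9 genes, lists for the other steps of the pathway were counted. Each list count stands beside 17.9% called higher and 16% called lower over all genes tested. Of the factors that bind class II promoters, 2 of 7 were called higher, 1 lower and 4 were not called. *Rfxap* and *Rfxank*, subunits of the RFX complex, rose by 0.48 (SE 0.13, adjusted p = 0.0196) and 0.33 (SE 0.11, adjusted p = 0.0407). The third subunit gene, *Rfx5*, did not pass, with 726 ± 148 in sgScramble and 535 ± 100.8 in sgKrt19 (adjusted p = 0.0936). *Nfya*, a subunit of NF-Y, fell by 0.43 (SE 0.13, adjusted p = 0.0290). These 3 calls lay near the threshold. Leaving out sgScramble replicate 2 or 4, or sgKrt19 replicate 5 or 8, left log2 fold changes of 0.41 to 0.45 for *Rfxap* and 0.29 to 0.30 for *Rfxank*, with adjusted p-values of 0.0530 to 0.0657 and 0.105 to 0.121. Leaving out sgScramble replicate 2 or 4, or sgKrt19 replicate 5 or 6, left −0.42 to −0.31 for *Nfya*, with adjusted p-values of 0.0679 to 0.103. With scaling by library size alone *Rfxap* and *Rfxank* were not called and *Rfx5* was called lower (adjusted p = 0.0398). The log2 fold changes of the 7 factors ran from −0.43 to 0.48, and the median of the list was 0.19 against 0.0072 over all genes tested.

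Of 9 genes of interferon gamma signaling, 4 were called higher and none lower, at a median log2 fold change of 0.27. *Ifng*, the cytokine gene itself, had 40.9, 24.7, 22.8 and 29.7 normalized reads in sgScramble and 187, 147 and 200 in sgKrt19. It rose by 2.57 on the log2 scale (SE 0.25, adjusted p = 9.7e-05). *Irf1*, an activator of the inducible *Ciita* promoter, rose by 0.91 (SE 0.16, adjusted p = 0.0024), and *Socs1*, a feedback inhibitor, by 1.57 (SE 0.17, adjusted p = 0.0002). *Ifngr1*, a receptor chain, rose by 0.49 (SE 0.12, adjusted p = 0.0124), or by 0.27 with scaling by library size alone, where it was not called (adjusted p = 0.0541) and 3 of the 9 genes were.

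Of 8 genes of endosomal processing, 4 were called higher and none lower, at a median of 0.41. They were *Ctss*, the protease of the late steps of invariant chain degradation (log2 fold change 0.68, SE 0.15, adjusted p = 0.0070), *Ctsb*, another lysosomal protease (0.53, SE 0.13, adjusted p = 0.0111), *Ifi30*, which reduces disulfide bonds of antigens (0.68, SE 0.12, adjusted p = 0.0027), and *Sppl2a*, which cleaves the last membrane fragment of the invariant chain (0.59, SE 0.10, adjusted p = 0.0017). Of 3 genes that govern the turnover of class II at the surface, 1 was called lower. It was *March8*, a ubiquitin ligase, which fell by 0.36 (SE 0.09, adjusted p = 0.0158), or by 0.33 (adjusted p = 0.0592) without sgScramble replicate 2. *March1*, the ligase of dendritic cells and B cells, had 214 ± 37.7 and 208 ± 24.4, and *Cd83*, which opposes it, had 253 ± 38.9 and 333 ± 99.0. Without sgKrt19 replicate 8 *Cd83* was called higher (adjusted p = 0.0499).

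Of 5 genes whose products bind class II or CD74, 2 were called higher. *Lag3*, an inhibitory receptor for class II on T cells, rose from 181 ± 39.5 to 622 ± 114 (log2 fold change 1.78, SE 0.20, adjusted p = 0.0002). *Ddt*, a ligand of CD74, rose from 654 ± 75.1 to 1251 ± 216 (log2 fold change 0.93, SE 0.15, adjusted p = 0.0014). *Cd4*, the coreceptor for class II, had 68.7, 56.3, 83.1 and 99.2 normalized reads in sgScramble and 151, 100 and 90.3 in sgKrt19, and did not pass (adjusted p = 0.116), as *Mif*, the other CD74 ligand, did not (adjusted p = 0.0765, and 0.0376 without sgScramble replicate 1). Of 5 costimulation genes 3 were called higher, *Cd86* by 0.74 (SE 0.18, adjusted p = 0.0126), *Cd40* by 0.85 (SE 0.16, adjusted p = 0.0030) and *Icosl* by 1.28 (SE 0.16, adjusted p = 0.0004). *Cd80* just missed the threshold at 0.49 on the log2 scale (SE 0.18, adjusted p = 0.0526), and was called without sgScramble replicate 1 (adjusted p = 0.0459), by DESeq2 (adjusted p = 0.0380) and with the filter at 50 (adjusted p = 0.0491).

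**Figure D3:**
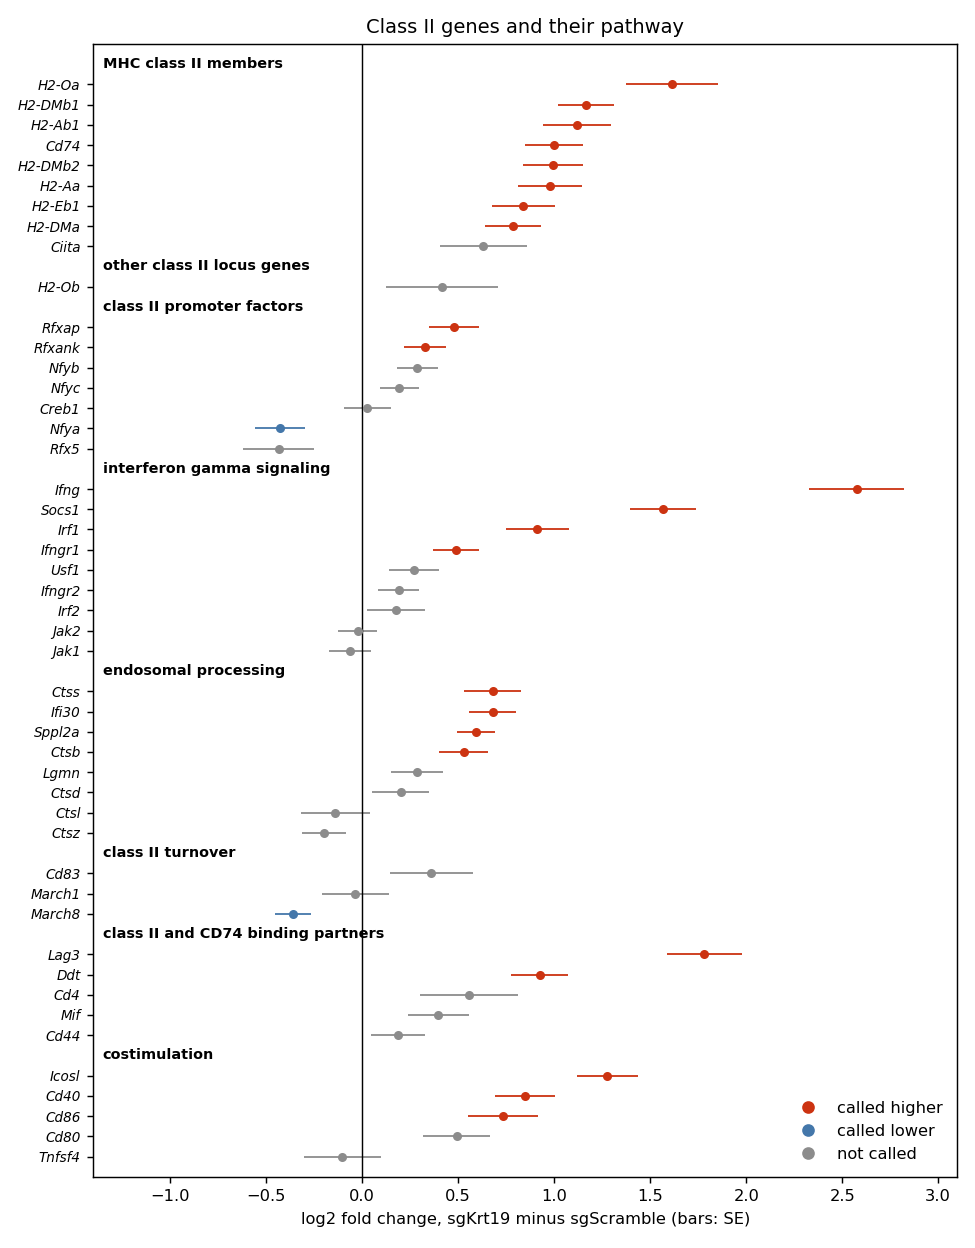
Log2 fold change (sgKrt19 minus sgScramble, bars SE) of the 9 class II genes and of the tested genes of 7 pathway lists, coloured by the limma call at an adjusted p under 0.05. Of the 9 class II genes 8 were called higher, and calls lower were limited to *Nfya* and *March8* among the genes plotted.

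Cells that normally carry class II were followed by their markers, and the part of each in the class II values was not tested. Over all genes tested 17.9% were called higher and 16% lower. Of 9 dendritic cell markers, 3 were called higher, *Xcr1* (log2 fold change 1.55, SE 0.30, adjusted p = 0.0036), *Clec9a* (0.88, SE 0.25, adjusted p = 0.0214) and *Itgax* (0.55, SE 0.17, adjusted p = 0.0330), and the summed count of the list was 1419 to 1940 in sgScramble and 2025 to 2585 in sgKrt19. *Xcr1* and *Clec9a* mark the dendritic cells that cross-present antigen and had low counts, 24.05 ± 6.51 and 46.9 ± 12.2 in sgScramble. The other 6 markers of the list were not called. *Flt3*, *Zbtb46*, *Ccr7* and *Batf3* had log2 fold changes of 0.10, 0.11, 0.21 and 0.13, with adjusted p-values of 0.478 to 0.760. *Clec10a* had 0.47 (adjusted p = 0.112). *Cd209a* had 10.9 in sgScramble and 18.3 in sgKrt19 (adjusted p = 0.242). Without sgScramble replicate 2, or sgKrt19 replicate 6 or 8, *Clec9a* had an adjusted p of 0.0579 to 0.0669, and without sgScramble replicate 1, 2 or 3, or sgKrt19 replicate 6, *Itgax* had one of 0.0626 to 0.117. With scaling by library size alone, 1 of the 9 dendritic cell markers was called. Of 10 macrophage and monocyte markers 5 were called higher, among them *C1qb* by 0.57 (SE 0.14, adjusted p = 0.0121), *Fcgr1* by 0.89 (SE 0.18, adjusted p = 0.0045) and *Ly6c2* by 2.03 (SE 0.22, adjusted p = 0.0002). The 4 not called, *Adgre1*, *Csf1r*, *Cd68* and *Mertk*, had log2 fold changes of 0.02, 0.05, 0.10 and 0.11, with adjusted p-values of 0.589 to 0.942. *Mrc1*, named after its value was seen because it alone fell, fell by 0.50 (SE 0.16, adjusted p = 0.0378), with an adjusted p of 0.0718 to 0.123 without sgScramble replicate 2 or 4 or sgKrt19 replicate 5 or 8. With scaling by library size alone 2 macrophage and monocyte markers were called higher, without *C1qb* (0.36, adjusted p = 0.0572), and without sgKrt19 replicate 5 there were 3. The summed counts of the list overlapped, at 18946 to 26177 and 25408 to 30893. Of 7 B cell markers, 5 were too low to be tested and 2 were not called, 1 of which, *Pax5*, was called higher without sgScramble replicate 2 (log2 fold change 1.27, adjusted p = 0.0403, against 0.84 and 0.194 with all libraries). The list summed to 65.9 to 119.6 in sgScramble and 63.0 to 94.8 in sgKrt19. *Cr2*, the complement receptor of mature B cells, was at 0 in 3 of the 7 libraries.

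Markers of other cells moved as well, beside 17.9% called higher and 16% called lower over all genes tested. All 6 pan-leukocyte markers were called higher, with summed counts of 8298 to 11250 and 15446 to 20356, as were all 7 T cell markers, with 414 to 927 and 2930 to 5588, and all 5 neutrophil markers, with 364 to 541 and 1051 to 1156. Of 6 epithelial markers 5 were called higher, at summed counts of 128859 to 173225 and 269273 to 280109. Endothelial markers summed to 2212 to 3316 and 3732 to 3964, with 2 of 4 called higher, and none of 4 fibroblast markers was called. The summed count of the 9 class II genes was 34923 to 50486 in sgScramble and 77666 to 94857 in sgKrt19. As a share of all reads the 9 genes took 0.0867% to 0.127% in sgScramble and 0.174% to 0.189% in sgKrt19.

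**Figure D4:**
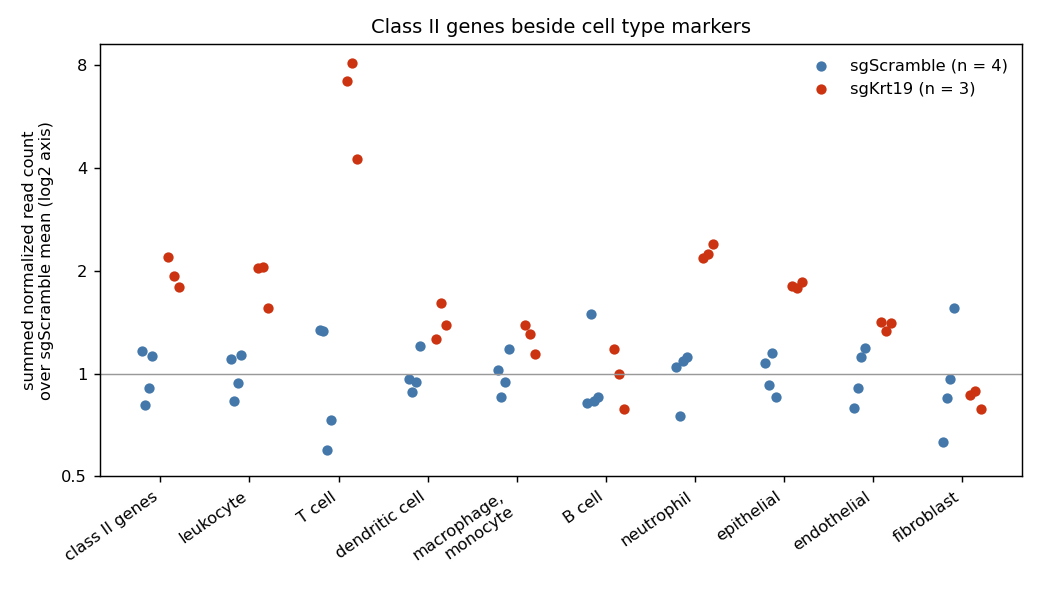
Summed normalized read counts of the 9 class II genes and of 9 marker lists, each divided by its sgScramble mean (log2 axis, 1 point per library, sgScramble n = 4, sgKrt19 n = 3). Class II genes, leukocyte, T cell, dendritic cell, neutrophil, epithelial and endothelial sums lie higher in all sgKrt19 libraries, and macrophage, B cell and fibroblast sums overlap.

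The genes whose profile over the 7 libraries was most like that of *H2-Aa*, *H2-Ab1* and *Cd74* were sought among 9090 genes whose mean count was 500 or more, leaving out the 9 class II genes, the genes of the lists and genes known only by a clone name. Likeness was the root mean square difference of centred log2 values from the mean profile of these 3 genes, and it is a description of 7 points. The closest was *Fcer1g*, the common γ chain of Fc receptors, at 0.044, followed by *Mir5107* at 0.075, *Creg1*, a lysosomal glycoprotein gene, at 0.088, *Acer3*, a ceramidase gene, at 0.144 and *Bcl2a1d*, of a family of close copies, at 0.147. Exons of *Cd74* overlap *Mir5107* on the same strand over 0.715% of the 1679 *Cd74* exon bases. The overlap is a larger share of *Mir5107*, which has 88 exon bases. In sgScramble *Mir5107* had 16662 ± 3021 normalized reads per kilobase, against 12089 ± 1932 for *Cd74*, so *Mir5107* may not be a separate profile. Whether its count holds *Cd74* reads was not tested. *Fcer1g* had 1506, 1034, 1248 and 1456 normalized reads in sgScramble and 2973, 2496 and 2222 in sgKrt19, which is the order of *H2-Ab1* in both groups.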

How the data were processed

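RNA from 7 subcutaneous tumors was sequenced as single reads of 76 bases after 12 cycles of amplification. Per the labels the RNA was polyA RNA, whereas the study names a stranded total RNA kit. The authors deposited 1 table with 38026 genes, whose values are a signal, read counts that had been divided by a size factor of each library. Dividing by the step that 1 read makes gave whole reads for 100% of the values, within 0.1 read. The submitters' processing notes name the build mm10, and the aligner, the counting program and its use of strand are not given in the sources used here. Of the gene identifiers, 97.7% are in GENCODE mouse release 21, which supplied positions and exons.

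The 21322 genes that reached a value of 10 in 3 or more libraries were tested. The groups were compared on log2(value + 1) by limma 3.58.1 in R 4.3.3 (lmFit, then eBayes with the trend option), and Benjamini-Hochberg adjustment covered all genes tested. The pseudocount of 1 understates fold changes of low genes. Exact permutation tests were run with scipy 1.17.1. Alternatives were edgeR 4.0.16 (quasi-likelihood, TMM) and DESeq2 1.42.0 on the recovered reads, a pseudocount of 10, no filter, a filter at 50, scaling by library size, a test against a fold change of 1.5, and leaving out each library. The procedure was tested on simulated data. The groups share no replicate number. *Nfya* and *Ifi30* have 2 rows each, of which the higher was used. *March1* and *March8* are written as dates in the table and were matched by identifier.

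The 9 genes, the lists and the tests were chosen with earlier results of these data known. Named were the 9 genes, *Krt19*, genes of the 7 pathway lists, up to 3 genes of a marker list by the size of their fold change, and the 5 nearest profiles. Some items, 2 list genes among them, are not reported here. Other names were chosen after their values were seen. A floor of 3 reads corresponds to a value of 2.74 to 3.47 and covers counting error only.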

Additional observations from a re-analysis of the deposited data

Results flagged for a closer look

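Among 74 values and summed lists searched within the sgScramble group, the only group with enough libraries, 3 had a library whose gap to the others exceeded the 95% critical share of the group's range after Dixon, and chance gives about 1 in 20. *Itgax* was 1207 in sgScramble replicate 4, against 845, 872 and 874. The summed B cell markers were 119.6 in sgScramble replicate 2, against 65.9, 66.7 and 68.6. The summed skeletal muscle markers were 1554 in sgScramble replicate 3, against 22.7, 24.1 and 33.4. None of the 9 class II genes had such a library.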

How the results depend on the processing

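No paired analysis was possible because the groups share no replicate number. Over 14 alternative settings all 9 class II genes kept a positive fold change. The number of them called was 2 in a test against a fold change of 1.5, where *H2-DMb1* and *H2-Oa* passed and 1336 of all genes were called in place of 7240, and 8 or 9 under the other settings. With 1 library left out in turn, 8 to 9 class II genes and 4886 to 7739 of all genes were called, and the log2 fold change of *Krt19* was −3.68 to −3.37. Scaling by library size alone moved the median log2 fold change of all genes by −0.21 and the share of calls that were higher from 52.8% to 27.7% (2187 of 7892), and lowered the log2 fold change of *H2-Ab1* to 0.90 and of *Ciita* to 0.41, with 8 class II genes called. With 1 library left out the log2 fold change of *March1* was −0.12 to 0.079, positive without sgScramble replicate 4 (0.079) and without sgKrt19 replicate 8 (0.042). The change of *H2-Ab1* minus *Ptprc* was −0.18 to 0.024, positive without sgKrt19 replicate 6. Neither passed 0.05 in any setting. *Rfxank* lost its call in 7 settings and *Rfxap* in 6. *Nfya* lost its call in 5 settings, *Mrc1* and *Clec9a* in 5 each and *Itgax* in 6. The permutation tests, whose two-sided p was 2 times the smaller one-sided p, could not pass 0.05 with 4 and 3 libraries.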
